A study of Saccharomyces cerevisiae with 24 samples.

Results

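The comparison set mature ribosomes of a yeast strain lacking 2 guide RNAs against their parent strain, without chemical probing. Its members were the 6 libraries made without dimethyl sulfate (DMS) from mature ribosomes, 3 of BY4741 and 3 of BY4741 with snr31 and snr54 deleted, out of 24 libraries in the series. BY4741 is a standard laboratory strain of Saccharomyces cerevisiae, and both strains were grown in YPD to mid-log phase. The parallel libraries of the same strains, 6 in number, had received 1% DMS for 5 min. Every library was read by DMS-MaPseq, in which the TGIRT-III reverse transcriptase copies past an altered base and leaves a mutation in the read. Without DMS those mutations come from natural base modifications and from errors of copying and sequencing. The labels call the treated particles mature 40S and the design calls them mature ribosomes, and the large-subunit 25S RNA was covered as well. The 3 replicates of a strain are biological according to the series design, and both guide genes were deleted in the same strain, so their effects cannot be told apart.

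Box C/D small nucleolar RNAs base-pair with ribosomal RNA and direct a methyl group to the ribose 2′-hydroxyl of the paired nucleotide. Box H/ACA RNAs direct the conversion of uridine to pseudouridine. snR54 is a box C/D guide for 2′-O-methylation of A974 of 18S, the RNA of the small subunit, and snR31 is a box H/ACA guide for the pseudouridine at 18S U999. Both targets lie in the central domain, which forms the platform of the small subunit. A ribose methyl group can slow a reverse transcriptase or make it misread, while pseudouridine pairs like uridine and is nearly silent in this readout.

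The stretch that holds both targets is shown because the comparison turns on it. The sequence is that of the deposited files, from RDN37 in the rDNA array on chromosome XII, numbered from 1 at the first base of 18S. Capitals mark A974 and U999.

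18S nucleotides 959 to 1014: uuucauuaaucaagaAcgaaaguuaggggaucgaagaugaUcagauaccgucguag

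BY4741 replicate 2 stood apart, and 2 further stretches of 18S are shown because its raised sites cluster in them. Capitals mark C114, A119, U128, C131, U132 and U134 in the first, and U935 and C956 in the second.

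18S nucleotides 104 to 144: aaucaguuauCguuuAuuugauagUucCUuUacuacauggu
18S from nucleotide 925: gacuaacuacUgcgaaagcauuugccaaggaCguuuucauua

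Of the 6858 nucleotides of RDN37, the transcript that is cut into 18S, 5.8S and 25S, 5354 had an effective depth of at least 1000 reads in all 6 libraries. They were 1799 of the 1800 nucleotides of 18S, all 158 of 5.8S, 3393 of the 3396 of 25S and 4 of internal transcribed spacer ITS1. A further filter of at least 30 mutations over the 6 libraries left 5306 tested sites, so 48 had too few. Median effective depth was 36871 to 87918 reads per nucleotide, and the libraries held 381072 to 920477 mutations. A mutation rate is the share of reads over a site that carried a mutation. Log2 changes are deletion over BY4741 after scaling each library to its typical site.

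BY4741 replicate 2 had 17 sites at a rate of at least 0.5% and at least 10 times that of every other library. None of the other 5 libraries had such a site. The 17 comprised 10 U, 4 A and 3 C, with 12 in 18S and 5 in 25S, so the raised rates were not confined to U. At 18S A119 the replicate had a mutation rate of 78.5%, where the others had 2.13% to 3.96%. It had 17.0% at C131 against 0.166% to 0.310%, and 14.7% at U128 against 0.0992% to 0.197%. At C956 it had 13.7% against 0.178% to 0.316%, and at U935 11.2% against 0.102% to 0.213%. These 5 sites each rested on at least 4240 mutated reads in that library. The next in rate were U303 (5.48%), C114 (5.24%) and U37 (2.17%). U132 had 1.93%, U134 1.93%, A973 of 25S 1.90% and U611 1.83%. In the other libraries the same 7 sites lay between 0.0217% and 0.106%.

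**Figure D1:**
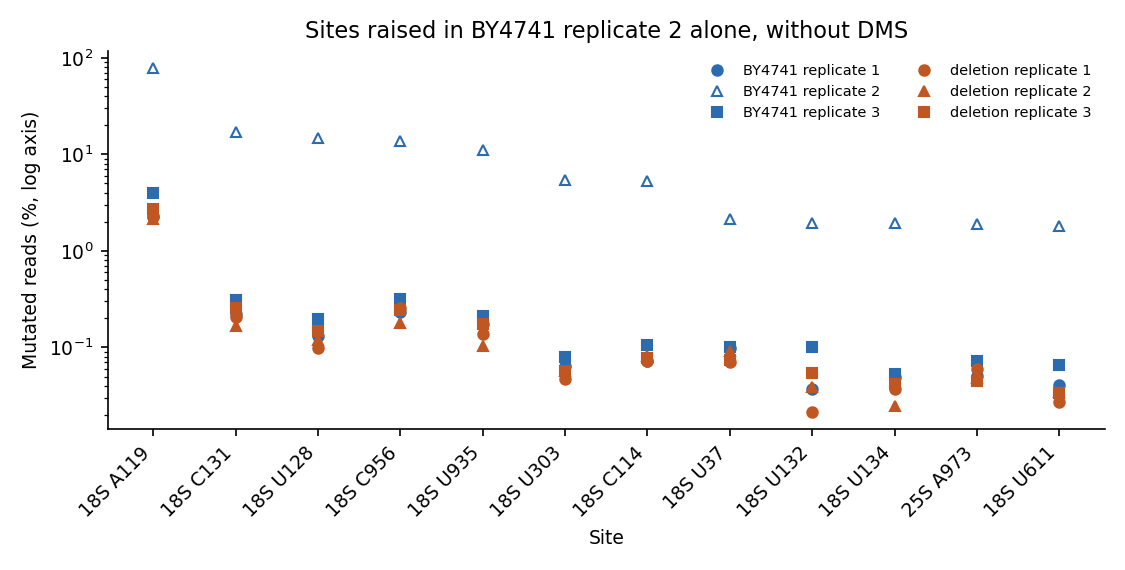
Mutated reads in percent (log axis) at the 12 sites with the highest rates among those raised in BY4741 replicate 2, 1 point per library. The open triangles of BY4741 replicate 2 run from 78.5% at 18S A119 to 1.83% at 18S U611, and the points of the other 5 libraries lie together beneath them.

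Read depth in the same library was also uneven near the start of 18S. From nucleotide 79 to 123 its depth averaged 3.71 times its 18S median, where the other 5 libraries averaged 1.05 to 1.65 times theirs. The edge was sharp, from 3.64 times at nucleotide 123 to 1.28 times at nucleotide 124. A119 and C114 lie inside that stretch. From nucleotide 4 to 38 the depth averaged 2.46 times, against 1.07 to 1.53 times. Both stretches are runs where the ratio was at least 1.5 times the highest of the other libraries. It stayed above all of them up to nucleotide 65, at 2.72 times, and fell to 1.22 times at nucleotide 66. The 17 sites held 16.7% of all mutations in BY4741 replicate 2 and 0.220% to 0.409% in the other libraries. It had 45 sites over 1%, where the others had 12 to 16. Among the DMS-treated libraries of the same strains, deletion replicate 3 was the highest at 16 of the 17 sites. There A119 had 57.7%, where the other treated libraries had 4.31% to 6.43%, and at 14 of the 17 sites it was at least 2 times the next library. The part of these reads in the comparisons below was not tested beyond the fits without BY4741 replicate 2.

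**Figure D2:**
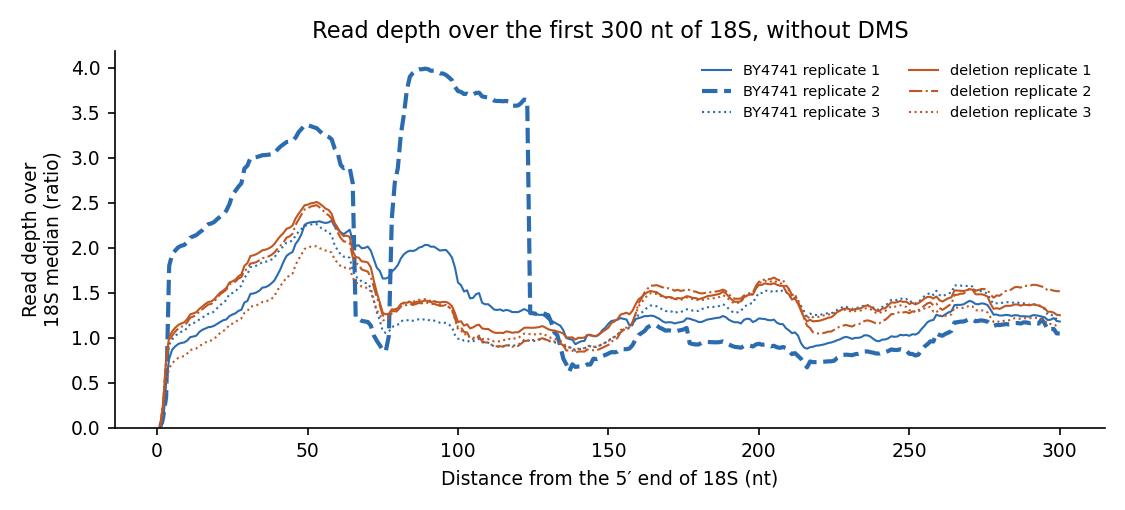
Read depth over the first 300 nt of 18S, as a ratio to the median depth of 18S in the same library, with distance from the 5′ end of 18S in nt on the horizontal axis and 1 line per library. BY4741 replicate 2 (thick dashed line) stands above the others from nucleotide 4 to 65 and from 79 to 123, with a peak of 3.99 times in the latter.

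18S A974, the snR54 target, had the smallest p of all 5306 sites and a lower mutation rate in the deletion. BY4741 had 0.166%, 0.162% and 0.0936%, and the deletion had 0.0349%, 0.0169% and 0.0284%. The groups did not overlap, and BY4741 replicate 2 lay close to replicate 1. The mutated reads behind these rates were 108 of 65155, 59 of 36427 and 22 of 23498 in BY4741. They were 11 of 31510, 8 of 47469 and 8 of 28216 in the deletion. The lowest BY4741 rate had a 95% Wilson interval of 0.0618% to 0.142%, and the highest deletion rate one of 0.0195% to 0.0625%, which cover counting error only. BY4741 on average had 5.26 times the deletion's rate, and the log2 change was -2.45 (SE 0.355, unadjusted p = 4.75e-05). The edgeR adjusted p was 0.252, so the site was not called at the threshold of 0.05. Across 11 other settings the adjusted p ran from 0.000527 with DESeq2, which called it, to 0.587 with limma. With 1 library left out edgeR called it in 1 of 6 fits, without BY4741 replicate 2 (adjusted p = 0.0408), and the adjusted p of the other 5 reached 1.00.

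The level of A974 was set against the other adenosines of 18S. The 457 tested 18S A without a listed modification had a median rate of 0.0239% to 0.0344% per library. In BY4741, 94.7% to 99.6% of them lay below A974. In the deletion 77.7%, 19.04% and 48.8% did, so A974 was within the range of ordinary adenosines there. Of the 7 other 2′-O-methylated A of 18S, 4, 4 and 5 lay above A974 in the BY4741 libraries, and all 7 did in each deletion library.

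**Figure D3:**
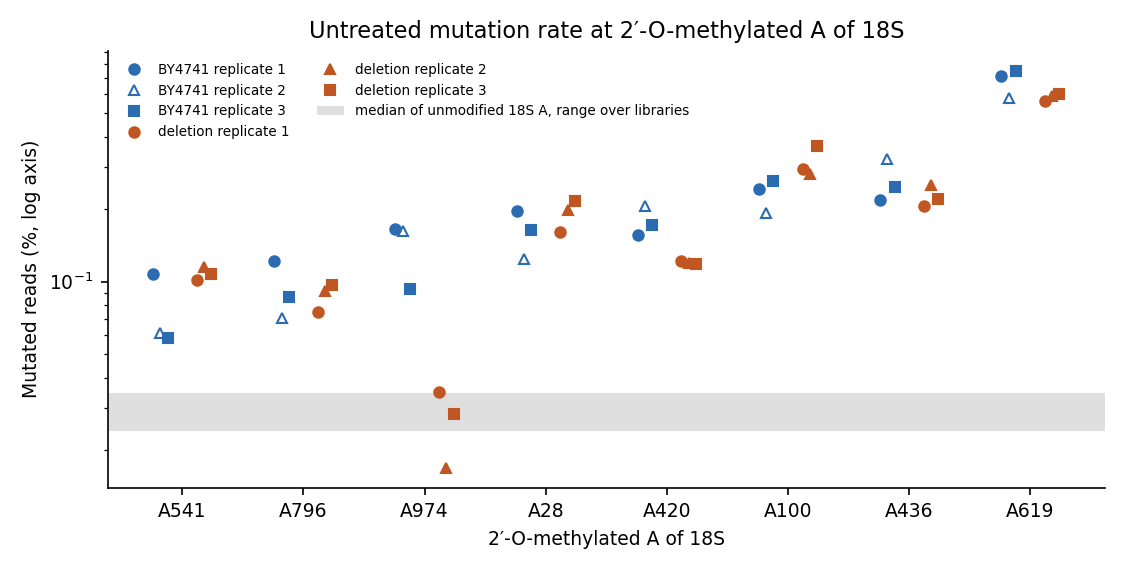
Mutated reads in percent (log axis) at the 8 2′-O-methylated A of 18S, 1 point per library, with BY4741 on the left of each pair, and a grey band for the median of the unmodified A of 18S (0.0239% to 0.0344%). At A974 the 3 deletion points (0.0169% to 0.0349%) straddle the band, and at the other 7 sites every point lies above it.

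The other 7 are guided by other snoRNAs and served as a within-molecule reference. Of them A420, guided by snR52, had 0.156%, 0.207% and 0.172% in BY4741 and 0.121%, 0.119% and 0.119% in the deletion (log2 change -0.52, SE 0.167, unadjusted p = 0.0109). A100, guided by snR51, had 0.243%, 0.192% and 0.261% against 0.294%, 0.281% and 0.367% (log2 change 0.48, SE 0.201, unadjusted p = 0.0381). Neither site was called (edgeR adjusted p = 1.00), though the groups did not overlap at either. The remaining 5 overlapped between the strains.

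18S U999, the snR31 target, was not called and overlapped between the strains. BY4741 had 0.0298%, 0.129% and 0.0592%, and the deletion had 0.0985%, 0.0501% and 0.0744%. The highest value among the 6 libraries was that of BY4741 replicate 2, and the lowest that of BY4741 replicate 1. The log2 change was 0.12 (SE 0.455, edgeR adjusted p = 1.00), and it ranked 4053 of 5306 by p. With 1 library left out the log2 change turned negative without BY4741 replicate 1 (-0.29) and without deletion replicate 1 (-0.14), and it was 0.83 without BY4741 replicate 2 (SE 0.357, unadjusted p = 0.0354, edgeR adjusted p = 0.978). That rise was not particular to the target. The pseudouridines U2351, U966 and U2735 of 25S, guided by other snoRNAs, also rose without BY4741 replicate 2, as given below.

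The second smallest p of all sites belonged to 18S G972, which lies 2 nt on the 5′ side of A974. It was chosen for description after its values were seen, as were the neighbours below. G972 had 0.104%, 0.109% and 0.113% in BY4741 and 0.191%, 0.224% and 0.157% in the deletion, with no overlap (log2 change 0.86, SE 0.192, unadjusted p = 0.00126, edgeR adjusted p = 1.00). On the 3′ side A977 had 0.0151%, 0.0321% and 0.0391% against 0.0488%, 0.0686% and 0.0471%, again without overlap (log2 change 1.15, SE 0.349). G976 and A978 had log2 changes of 0.82 (SE 0.328) and 0.75 (SE 0.321), and their groups overlapped. These 4 were the sites of the window with higher rates in the deletion at an unadjusted p under 0.05, and all lay within 4 nt of A974. A rise was not seen at every site there. A970, A971 and A973 had log2 changes of -0.49 (SE 0.291), -0.15 (SE 0.260) and -0.06 (SE 0.685). C975 had one of 0.19 (SE 0.414), and groups overlapped at all of these. With such SEs a rise like that at G976 or A978 is not excluded at A973 or C975. With 1 library left out, G972 and A977 kept an unadjusted p under 0.05 in each of the 6 fits. G976 did so in 3 of the 6 fits. A978 did so in 1 of 6, without BY4741 replicate 2 (log2 change 1.21, unadjusted p = 0.00124), and its p reached 0.175 in the others.

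The lower sites stood farther from A974. A993, 6 nt on the 5′ side of U999, had 0.0653%, 0.0644% and 0.0473% in BY4741 and 0.0227%, 0.0325% and 0.0319% in the deletion (log2 change -1.02, SE 0.293, rank 7). A1001, 2 nt on the 3′ side of U999, had 0.0711%, 0.110% and 0.0749% against 0.0355%, 0.0413% and 0.0575% (log2 change -0.89, SE 0.271, rank 13). Neither pair of groups overlapped, and neither site was called (edgeR adjusted p = 1.00). C956 was lower in the deletion (log2 change -4.27, SE 1.32), a value carried by BY4741 replicate 2.

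Within 20 nt of A974, counting it, 41 sites were tested, with 22 higher and 19 lower in the deletion. Without a library factor, 19 of the 40 besides A974 were higher and 21 lower. Of the 41, 7 (17.1%) had an unadjusted p under 0.05, where the share over all tested sites was 3.35%. Neighbouring sites share reads, and the window was chosen for its target, so the counts are a description. Without BY4741 replicate 2, 4 of the 40 sites other than A974 had an unadjusted p under 0.05, 3 higher and 1 lower, and the share over all sites was 4.86%. The number was 4 to 10 of 40 with each library left out, where the share over all sites ran from 1.96% to 4.86%. Within 20 nt of U999, 2 of 41 sites (4.88%) did, A993 and A1001. That number was 6 of 41 (14.6%) without BY4741 replicate 1, all lower, where the share over all sites was 4.82%. It was 5 of 41 (12.2%) without deletion replicate 3, against 4.28% of all sites, and 2 or 3 without each of the others.

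**Figure D4:**
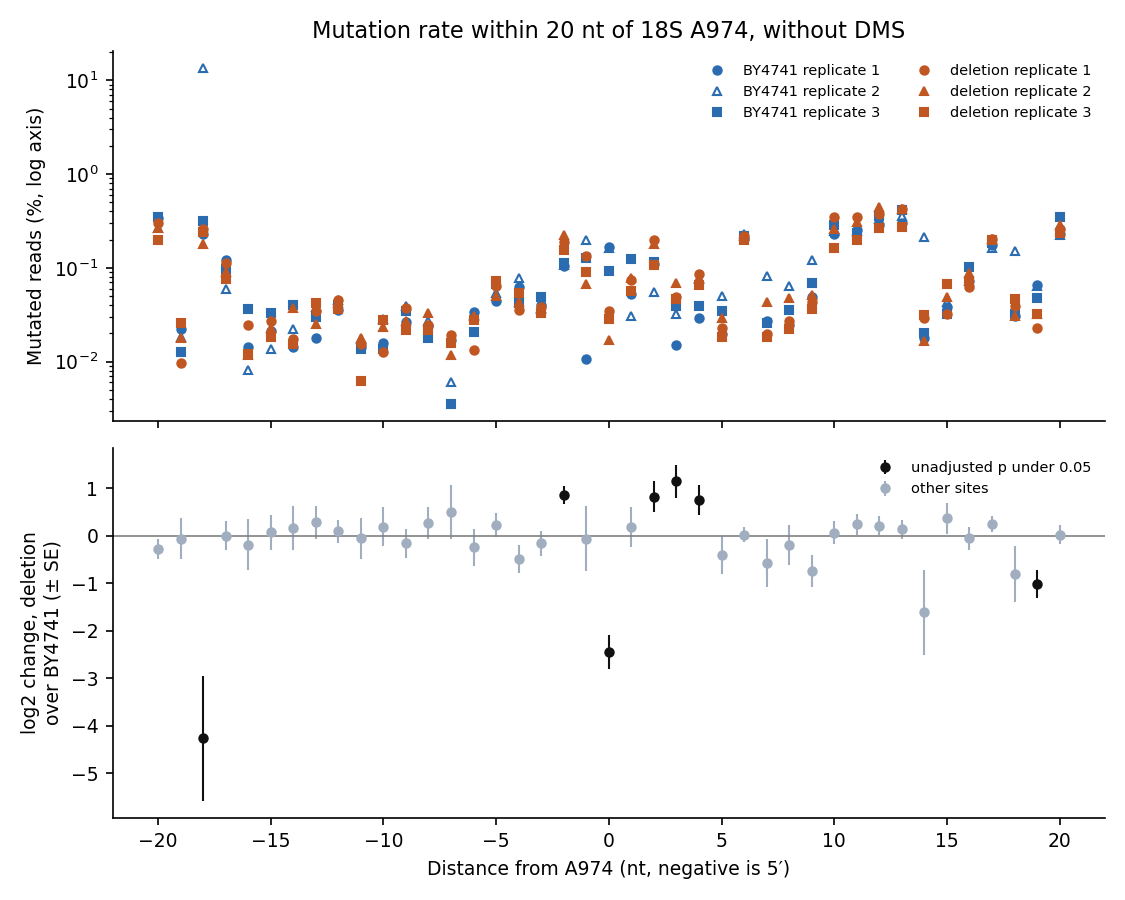
Mutated reads in percent (top, log axis, 1 point per library) and log2 change of the deletion over BY4741 with its SE (bottom) against distance from 18S A974 in nt, negative being 5′. A974 is at -2.45. Its neighbours at -2, 2, 3 and 4 nt lie between 0.75 and 1.15, and those at -4, -3, -1 and 1 nt between -0.49 and 0.19. The open triangle at the top left is C956 in BY4741 replicate 2.

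The DMS-treated libraries of the same strains, which the selection did not use, were read at these sites too. At the A sites they do not repeat the untreated measure, since DMS adds its own signal there. At G972 the treated groups overlapped, with 0.132% ± 0.0311 for BY4741 against 0.151% ± 0.0305 (SD, n = 3, exact permutation p = 0.5). They overlapped at G976 too, with 0.106% ± 0.0578 against 0.150% ± 0.0243 (n = 3, exact permutation p = 0.3). At A977 they did not, with 0.583% ± 0.161 against 1.07% ± 0.119, nor at A978, with 1.28% ± 0.139 against 1.98% ± 0.114 (n = 3, exact permutation p = 0.1, the smallest that 3 against 3 allows). A993 and A1001 were higher in the treated deletion. A993 had 6.92% ± 0.935 against 8.53% ± 1.03 with overlap, and A1001 had 1.90% ± 0.358 against 2.65% ± 0.162 without it (SD, n = 3, exact permutation p = 0.2 and 0.1). DMS modifies A and C, so treated rates at A hold both signals. In BY4741 the untreated means at A977, A978, A993 and A1001 were 0.0288%, 0.0481%, 0.0590% and 0.0854%, far below the treated ones. Treated rates at these A sites are therefore mostly DMS signal, and untreated differences of this size could not be seen in them. The treated values are unscaled. Over all 1401 tested A sites the treated deletion had 1.30 times the BY4741 rate at the median, was higher at 94.3% and lay without overlap above BY4741 at 49%. The lower and upper quartiles over A sites were 1.20 and 1.44 times. A993 at 1.23 and A1001 at 1.40 times lay between the quartiles, and A978 at 1.55 and A977 at 1.83 times above the upper one.

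Over all sites edgeR called 0 of 5306 (0%). At an unadjusted p under 0.05 there were 178, 62 higher and 116 lower. Without BY4741 replicate 2 there were 258 and the balance turned, to 154 higher and 104 lower. DESeq2 called 1, A974, and had 44 at an unadjusted p under 0.05. limma called 0 and had 181. Groups did not overlap with the deletion higher at 146 sites (2.75%) and with the deletion lower at 265 sites (4.99%). The typical site had a mutation rate of 0.0553% in BY4741 and 0.0506% in the deletion.

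By the rule for sites with a mean rate of at least 0.2% in the higher group and groups that did not overlap, 12 were higher and 32 lower in the deletion. The sites at that rate were not counted, so these numbers cannot be set against the 2.75% and 4.99% of all tested sites. A single raised library could let a site pass, and U303, U134, U611 and U37 passed only through BY4741 replicate 2. The split is therefore tilted towards lower sites, and it was not counted without that replicate. All 10 named sites are in 18S. The largest positive log2 changes were at G81, A100, G1243, G461 and G1575, from 0.34 to 0.51, with none called. G81 had 0.224%, 0.105% and 0.232% in BY4741 and 0.236%, 0.268% and 0.271% in the deletion. G81 and A100 lie in the stretch where BY4741 replicate 2 had raised read depth. Without that replicate the log2 change was 0.17 at G81 and 0.30 at A100. G1243 had 0.218%, 0.278% and 0.232% in BY4741 and 0.334%, 0.318% and 0.302% in the deletion. The lowest were U303 (log2 change -4.99), U134 (-4.19), U611 (-4.14) and U37 (-3.20), each of them among the sites raised in BY4741 replicate 2, followed by G1074. G1074 had 0.255%, 0.194% and 0.295% against 0.183%, 0.183% and 0.124% (log2 change -0.54, SE 0.229, edgeR adjusted p = 1.00).

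Several sites that carry natural modifications of the base itself were mutated in most reads in both strains. At 18S U1191, which carries m1acp3-pseudouridine, the 6 libraries had 84.9% to 86.2%. The m1A sites of 25S had 87.4% to 88.6% at A645 and 57.0% to 61.7% at A2142. The m3U sites of 25S had 86.7% to 87.5% at U2634 and 83.4% to 84.6% at U2843. These 5 were the listed sites over 10%, and A119 was the only other site with a mean over 10%, through BY4741 replicate 2 alone. The dimethylated A1782 of 18S had 5.34%, 5.72% and 6.22% in BY4741 and 6.51%, 6.26% and 6.24% in the deletion. Its partner A1781 had 0.268% to 0.353%.

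Lower rates marked the other base-modified sites. G1575 of 18S, an m7G, had 0.608%, 0.568% and 0.609% in BY4741 and 0.656%, 0.769% and 0.771% in the deletion, without overlap (log2 change 0.34, SE 0.165). The ac4C sites of 18S had 0.209% to 0.285% at C1280 and 0.188% to 0.290% at C1773. The m5C sites of 25S, C2278 and C2870, had 0.0383% to 0.101%. Of the 12 base-modified sites 11 had a higher and 1 a lower log2 change, with a median of 0.06 against -0.01 over all sites. The split was 10 to 2 without a library factor, with a median of 0.01 against -0.06 over all sites. Groups did not overlap at 5 of the 12, all higher in the deletion, where 2.75% of all tested sites were, and edgeR called none. Among them U1191, A645 and U2843 were mutated in most reads and differed little. Their means were 85.3%, 87.6% and 83.6% in BY4741 and 85.9%, 88.4% and 84.3% in the deletion. The log2 split was 9 to 3 without BY4741 replicate 2.

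The listed 2′-O-methylated and pseudouridine sites were set beside all tested sites. They include the targets, and G2922 of 25S, for which no guide was listed. All 56 listed 2′-O-methylated sites were tested, with 23 higher and 33 lower, a median log2 change of -0.03. At an unadjusted p under 0.05 there were 3 (5.36%, against 3.35% of all sites), the A974, A420 and A100 given above. Among the 55 besides the target A974 there were 2 (3.64%). Without BY4741 replicate 2 there were 2 (3.57%, against 4.86% of all sites), both lower. A100 was not one of them (unadjusted p = 0.147). Without BY4741 replicate 1 there were 5 (8.93%, against 4.82% of all sites). Groups did not overlap at 6 of the 56 with the deletion lower and at 1 with it higher. Over all tested sites the shares were 4.99% and 2.75%. The lower ones were A974, A420 and, in 25S, A1133, A2256, A2640 and U2921. Of the 20 2′-O-methylated A, 15 were lower and 5 higher, and 5 and 1 of them did not overlap. Over all 1401 A sites 929 were lower and 472 higher, and 110 and 36 did not overlap. The median rate of the 56 sites was 0.149% in BY4741, above the 0.0553% of all sites. The 3 with the highest rates were U578 of 18S (1.49% ± 0.445 against 1.65% ± 0.221), G1450 of 25S (0.916% ± 0.252 against 0.943% ± 0.0366) and A619 of 18S (0.682% ± 0.0902 against 0.585% ± 0.0224; SD, n = 3). Their groups overlapped.

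Of 44 listed pseudouridines 43 were tested, with 22 higher and 21 lower, and 0 had an unadjusted p under 0.05 by edgeR, against 3.35% of all sites. Without BY4741 replicate 2 the number was 2 of 43 (4.65%, against 4.86% of all sites), both higher, and U999 was one of them. edgeR, DESeq2 and limma called none of the 43. Their median rate was 0.0313% in BY4741, close to the 0.0322% of all tested U sites. The highest in rate was U2351 of 25S, with 0.115%, 2.46% and 0.418% in BY4741 and 0.521%, 0.273% and 0.362% in the deletion. U966 of 25S had 0.0401%, 0.620% and 0.270% against 0.360%, 0.181% and 0.222%. U2735 of 25S had 0.0357%, 0.355% and 0.111% against 0.196%, 0.0954% and 0.105%. At all 3 the highest value was that of BY4741 replicate 2 and the lowest that of BY4741 replicate 1. Without replicate 2 their log2 changes became 0.65, 0.86 and 0.97.

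The bases differed in level, and by count of sites A leaned to lower rates in the deletion. Of 1401 A sites 929 were lower and 472 higher in the deletion (median log2 change -0.16), and 772 were lower without BY4741 replicate 2 (median -0.06). The lower rate at A974 stood beside that shift, which ran the same way under every library factor tried. Sites are not replicates, and the library medians over A overlapped between the strains. They were 0.0260%, 0.0351% and 0.0277% in BY4741 and 0.0249%, 0.0249% and 0.0290% in the deletion. At an unadjusted p under 0.05 by edgeR, 16 A sites were higher and 70 lower. Without BY4741 replicate 2, 62 were higher and 58 lower. C had 618 higher and 426 lower, G 755 and 702, and U 682 and 722. These 3 splits depended on the factor. Without one, C had 526 lower and 518 higher and G 900 lower and 557 higher. With edgeR's TMM factor, G had 557 lower and 900 higher and U 652 lower and 752 higher. They also turned with single libraries. Without BY4741 replicate 2, G had 416 higher and 1041 lower and U 840 higher and 564 lower. Without deletion replicate 3, G had 1037 higher and 420 lower and C 481 higher and 563 lower. Mean rates did not differ beyond the spread. A averaged 0.174% ± 0.0489 for BY4741 against 0.148% ± 0.00456 (SD, n = 3, exact permutation p = 0.9). The means were 0.0972% and 0.0843% for C, 0.198% and 0.192% for G, and 0.234% and 0.221% for U (n = 3, exact permutation p = 0.8 each). In A, C and U the highest library was BY4741 replicate 2, and without it the differences turned to the deletion.

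A stop of the reverse transcriptase at a site would leave a step in read depth across it, so the log2 ratio of depth in the 3 nt on the 3′ side to that in the 3 nt on the 5′ side was compared. At A974 it was 0.03, 0.01 and -0.18 in BY4741 and -0.13, -0.33 and -0.13 in the deletion. BY4741 replicate 3 lay among the deletion libraries. The difference was -0.15 (SE 0.0764, limma adjusted p = 0.724). At U999 it was 0.01 (SE 0.0255, adjusted p = 0.920). limma called 0 of 5332 sites (0%) and had 283 at an unadjusted p under 0.05.

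Depth over the rest of RDN37 was given as a ratio to the depth of 18S. The external and internal spacers (ETS, ITS) are cut away as the precursor matures, so reads well inside them belong to precursors or to cut-out spacer. Fewer molecules and fewer reads per molecule cannot be told apart here. Spacer depth was low in both strains, at most 0.0134 of 18S in each region and library, and was 15 to 39 reads per nucleotide in the 5′ ETS. In the 5′ ETS the ratio to 18S was 0.000437 ± 0.000177 for BY4741 and 0.000758 ± 0.000176 for the deletion, 1.74 times as high (SD, n = 3, exact permutation p = 0.2). BY4741 replicate 3 lay above deletion replicate 2. ITS2 had a ratio of 1.35 and the 3′ ETS one of 1.27, with overlapping groups (n = 3, exact permutation p = 0.2 each). The depth of the 3′ ETS lay almost wholly in the 20 nt next to 25S. Its BY4741 mean over 18S was 0.00268 with them and 3.52e-06 without (exact permutation p = 1 between the strains, n = 3). In the treated libraries of the same strains the whole 3′ ETS had a ratio of 1.77 without overlap (n = 3, exact permutation p = 0.1). The 5′ ETS at 1.57 and ITS2 at 1.14 overlapped there.

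ITS1 was divided at A2, the cleavage site that separates the precursors of the 2 subunits. Up to A2 its depth over 18S was 0.00177, 0.00244 and 0.00344 in BY4741 and 0.00449, 0.00300 and 0.00436 in the deletion, with overlap and a ratio of 1.55 (exact permutation p = 0.2, n = 3). Leaving out the 20 nt of each spacer next to a mature RNA, an alternative chosen after seeing the data, gave 0.00152, 0.00195 and 0.00232 against 0.00377, 0.00254 and 0.00331. The groups then did not overlap, with a ratio of 1.66 (n = 3, exact permutation p = 0.1). The treated libraries of the same strains gave 0.00179 ± 0.000571 and 0.00361 ± 0.000885 in that form, also without overlap (SD, n = 3, exact permutation p = 0.1). With its edges kept, ITS1 up to A2 had a treated ratio of 1.70, again without overlap (n = 3, exact permutation p = 0.1). Past A2 the treated ratio was 0.994, with overlap. In the untreated libraries the ratio past A2 was 1.17 (exact permutation p = 0.4, n = 3), and 1.72 without the 20 nt at the edges (p = 0.2 by the same exact test), with overlap in both.

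5.8S, the short RNA of the large subunit, was the only whole region whose groups did not overlap without DMS. Its depth over 18S was 2.17, 2.41 and 2.39 in BY4741 and 2.89, 3.29 and 2.88 in the deletion, a ratio of 1.30 (n = 3, exact permutation p = 0.1, adjusted 0.233 over 7 regions). Over 25S it was 1.07 ± 0.0807 against 1.32 ± 0.113, again without overlap (SD, n = 3, exact permutation p = 0.1). 25S itself had 2.18 ± 0.127 and 2.29 ± 0.122 times the 18S depth (ratio 1.05, exact permutation p = 0.2). In the treated libraries the 5.8S ratio between strains was 1.06, with overlap (n = 3, exact permutation p = 0.8). The exact permutation test of 3 against 3 cannot go below p = 0.1.

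**Figure D5:**
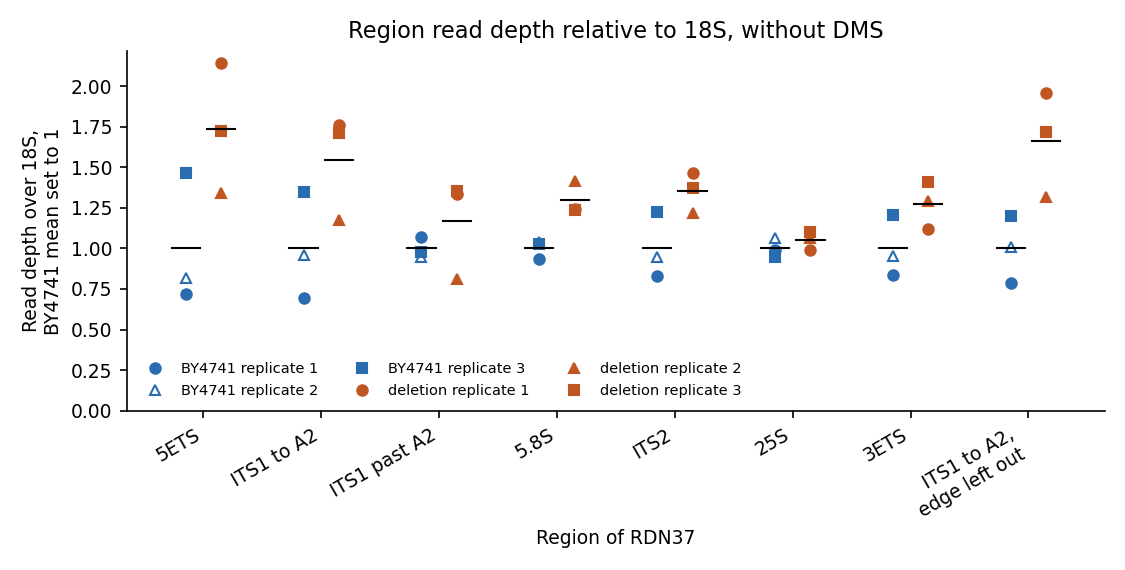
Read depth of each region of RDN37 over that of 18S, divided by the BY4741 mean, 1 point per library and a bar for each group mean. The deletion means are 1.05 (25S) to 1.74 (5′ ETS), and the groups are separate in 5.8S and in ITS1 up to A2 with the 20 nt at its edge left out.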

How the data were processed

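For each of the 6858 nucleotides of RDN37 the authors deposited counts of mutated reads, counts of effective depth and their mutation rate, a fraction which equals their ratio within 5e-07. Bowtie2 is named, without version, in the submitters' processing notes. No source used here gives the mutation counter, its filters or the build. Reads were single-end, 100 bp. Control columns inside the files have no depth. Region bounds came from RDN37-1 in the R64 reference table. A2 and the 112 modification sites came from textbook knowledge.

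Mutation counts were tested with edgeR 4.0.16 (quasi-likelihood, R 4.3.3), offset log effective depth plus log of a library factor, the median ratio to the geometric mean rate. SE is the change over the square root of F. Adjustment was Benjamini-Hochberg, called under 0.05. DESeq2 1.42.0 and limma 3.58.1 (log2 of rate plus 0.0001) were alternatives; limma tested coverage steps. Single values had exact two-sided permutation tests (SciPy 1.17.1). Scripts were tested on simulated data.

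Named sites were both targets, base-modified sites, the 5 largest non-overlapping changes each way at 0.2% or more, the 12 highest single-library sites and the 3 highest of each snoRNA class. Members and lists were chosen with earlier results of these data known. Low-mapping-quality reads were at most 0.0254% of depth. At most 0.826% of nucleotides had identical values in 2 libraries. PCR copies are not independent molecules. Deviations of same-numbered libraries from their strain correlated at -0.26 to -0.17, so numbers were not used as pairs. Pre-40S libraries were not analysed here.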

Additional observations from a re-analysis of the deposited data

Results flagged for a closer look

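The strain difference at 18S A974 had opposite directions without and with DMS before the libraries were scaled. Without DMS all 3 deletion libraries lay below all 3 BY4741 libraries. With DMS all 3 lay above them, at 0.530%, 0.558% and 0.528% against 0.350%, 0.456% and 0.393% before scaling. That unscaled difference, 1.35 times, stood beside a median of 1.30 times over all 1401 tested A sites with DMS, of which 94.3% were higher in the deletion. In an edgeR fit of all 12 libraries, with library factors set within each condition and added after the data had been seen, the interaction of strain and DMS was 2.86 on the log2 scale (SE 0.375, adjusted p = 0.00675). The untreated libraries of that fit are the ones described above, so its value includes their log2 change of -2.45. The library factors came from sites of all bases, so the general rise at treated A sites is in it too. It is therefore not separate evidence of a strain difference at A974, and the cause was not tested.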

How the results depend on the processing

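Depth limited the rates: A974 rested on 8 to 11 mutated reads per deletion library. The number of sites called by edgeR moved from 0 to 1 with DESeq2 and without BY4741 replicate 2 (range 0 to 1 with a library left out). In both cases the site was A974, at a log2 change of -2.43 and -2.46; its range was -2.69 to -2.13 with a library left out, and -2.47 to -1.99 over the other 11 settings. The U999 change ranged from -0.29 to 0.83 with a library left out. Base means minus those of BY4741 ranged, in percentage points, from -0.0417 to 0.00268 (A), -0.0267 to 0.00439 (C), -0.0123 to 0.00753 (G) and -0.0239 to 0.00477 (U). A replicate block gave 0 calls, 119 sites at an unadjusted p under 0.05 and an A974 change of -2.40 (adjusted p = 0.378), and changed no other call; same-numbered libraries did not deviate together.

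Some directions turned. C1280 of 18S was at 0.0255 with a TMM factor and 0.000143 with an 18S factor, and C1773 at -0.0233 without a factor. U966 and U2735 of 25S were at 0.35 and 0.15 with limma and 0.28 and 0.12 with the block. The U999 coverage step was at -0.00494 with 1 nucleotide each side. With a library left out, log2 changes that turned ranged from -0.0606 to 0.0518 (C1280), -0.110 to 0.204 (C1773) and -0.0216 to 0.187 (A1781) in 18S. In 25S they ranged from -0.00928 to 0.115 (A2142), -0.106 to 0.305 (C2278), -0.0649 to 0.455 (C2870), -0.000675 to 0.129 (U2634) and -0.0220 to 0.266 (G1450). U2351 ranged from -1.78 to 0.65, U966 from -0.69 to 0.86 and U2735 from -0.72 to 0.97, and the U999 coverage step from -0.0132 to 0.0278. The cause was not tested. Region depth ratios kept their direction and call under all alternatives run, though a test of 3 against 3 cannot pass 0.05. Edges of 20 nt (added after seeing the data) changed overlap in ITS1. Sites at an unadjusted p under 0.05 numbered 104 to 258 with a library left out, and coverage steps 91 to 658.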
